A study of Mus musculus with 36 samples.

Results

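The comparison described here is the one between Lrig1 genetically labelled (GL) cells sorted 1 week after a second skin wound (1w pw2) and the same lineage from unwounded skin (0w). It uses 6 of the 36 mini-bulk RNA-seq libraries of the series, 3 at 1w pw2 and 3 at 0w, chosen by the time point in their labels. The mice carried Lrig1-EGFP-ires-CreERT2 and Rosa26-fl/STOP/fl-tdTomato, and all of them, unwounded mice included, received 1 topical dose of hydroxytamoxifen on the tail, which marks Lrig1-expressing cells and their descendants with tdTomato. Recombination followed the Lrig1 promoter, so a library holds whatever cells descended from it and not 1 cell type. Labelling was done in young adults, 1 week before the 0w time point. The 1w pw2 mice were then wounded by a full-thickness tail punch at 0w and again, over the same place, at 8w, and were sampled at week 9, whereas the 0w mice were sampled at week 0 without a wound. No unwounded group of week 9 was analysed here, so the 2 wounds, the greater age and the longer time since labelling cannot be told apart in this comparison. The tdTomato+ cells were sorted from tail skin that took in the wound bed together with more distant hair follicles. Each library is a small pool of cells, so a change in the level of a transcript and a change in the share of cells that carry it cannot be told apart.

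Lrig1 marks stem cells in the junctional zone of the upper hair follicle, which in unwounded skin renew the infundibulum, the sebaceous duct and the sebaceous gland. When skin is wounded, progeny of such cells can leave the follicle and move into the epidermis between follicles. Keratinocytes in a healing edge are known to switch on the stress keratins Krt6a, Krt6b, Krt16 and Krt17, to raise alarmins such as S100a8, to remodel integrin, desmosome and gap junction contacts, and to draw more heavily on glycolysis. The comparison asks which of these programmes, and which other transcripts, stood at another level in the labelled cells 1 week after the second wound.

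Counts per library ran from 1491780 to 2266757 at 0w and from 1528091 to 3143170 at 1w pw2. No label says from how many animals a library was pooled, and a figure legend of the study gives 3 mice. The p-values rest on the spread between libraries within groups, estimated over all 18 Lrig1 GL libraries and not over these 6 alone. Mitochondrially encoded transcripts took 3.15% to 5.38% of the counts at 0w and 4.89% to 8.66% at 1w pw2. Across the 14306 genes tested, Pearson's r of log2 CPM, counts scaled to a common library total, between libraries of 1 group lay between 0.68 and 0.87 and that between libraries of the 2 groups between 0.67 and 0.79, a description across genes, which are not replicates. Libraries of the same group were thus not always more alike than libraries of different groups. The biological coefficient of variation over all 18 Lrig1 GL libraries was 0.698. Basal keratins were abundant in every library: Krt14 lay between 7281 and 12310.0 CPM at 0w and between 9979 and 12193 CPM at 1w pw2. Of the markers of other cells, 9 of 12 for fibroblasts, 4 of 8 for endothelial cells, 4 of 7 for melanocytes and 4 of 7 for Merkel cells were in the table used here, and none of the lists' genes in it was at 0 in all 6 libraries. Summed markers of fibroblasts were between 214 and 440.2 CPM at 0w and between 105 and 226 CPM at 1w pw2, those of endothelial cells between 7.11 and 14.5 CPM over all 6 libraries, those of melanocytes between 4.49 and 21.9 CPM and those of Merkel cells between 8.98 and 18.9 CPM. Of 14 immune markers 3 were in the table used here. Of these, Ptprc, the pan-leukocyte antigen, was at 1.54, 0.406 and 0 CPM at 0w and at 0.472, 11.6 and 16.4 CPM at 1w pw2, and Cd52 was below 0.75 CPM in each of the 6 libraries.

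One week after the second wound 142 genes were higher and 34 lower than in unwounded skin, at a Benjamini-Hochberg adjusted p under 0.05 in edgeR's quasi-likelihood test and a log2 fold change over 1 in size. These were 0.993% and 0.238% of the genes tested, and 1.23% together. The genes called higher had a median log2 fold change of 2.07 and those called lower of -1.75, while the median over all genes tested was -0.06. All 3 libraries of 1w pw2 stood above all 3 of 0w for the 142 genes and below them for the 34, a separation that 13.9% of all genes tested showed upwards and 10.4% downwards. Whether called or not, 6853 of all genes tested had a positive and 7442 a negative log2 fold change, the background for the sign counts of lists below. At an unadjusted p under 0.05, 1535 genes (10.7%) were higher and 1117 (7.81%) lower. The plot of fold change against level shows both sets against all genes. Leading genes of the higher set were Gja1, Rab31, Tcim, Mapk6, Tent5a and Gng5, and leading genes of the lower set were Tecr, Syvn1, Ephx1, Tsc22d3 and Gas7.

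**Figure D1:**
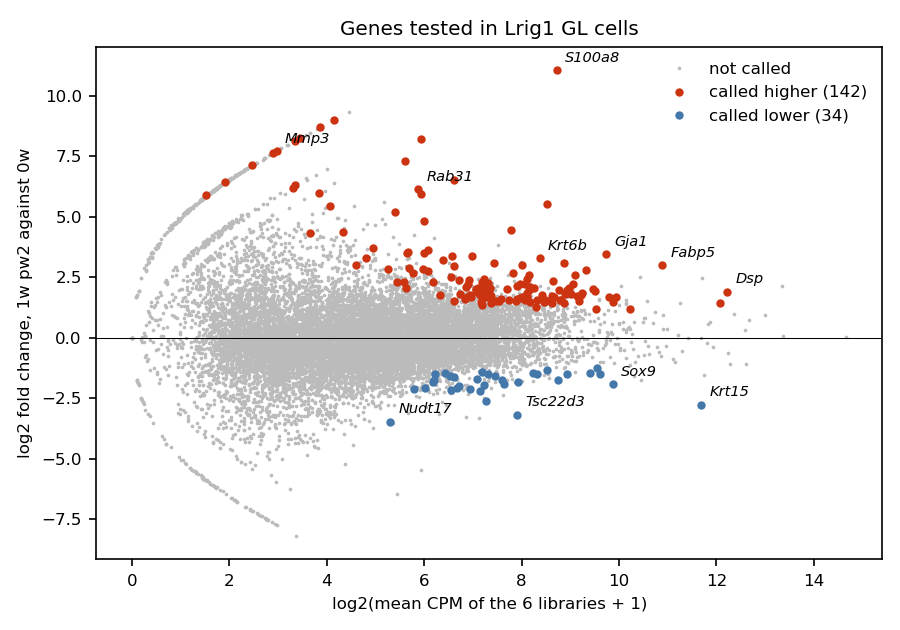
Log2 fold change of 1w pw2 against 0w (vertical axis) against the log2 mean CPM of the 6 libraries plus 1 (horizontal axis) for the 14306 genes tested. The 142 genes called higher (red) reached a larger size of change than the 34 called lower (blue), and S100a8 had the highest value of all, 11.06.

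The counts rested on the shared estimate of spread from 18 libraries and on single libraries. Fitted on the 6 libraries alone, edgeR called 3 genes higher and 0 lower (1922 at an unadjusted p under 0.05), and with 5 surrogate variables as covariates 0 and 0 (2088 at an unadjusted p under 0.05; 3 and 0 with 2 surrogate variables). The study states that it processed its normalized counts with the sva package, which estimates surrogate variables, and gives no number of them. The main fit here has no such covariates and so differs from the study's in this step. DESeq2 called 685 genes higher and 358 lower. Without 1w pw2 replicate 2 only 2 genes were called higher and 0 lower, with 1775 genes at an unadjusted p under 0.05 in the same edgeR test. Without 1w pw2 replicate 3 the counts were 25 higher and 1 lower, without 1w pw2 replicate 1 they were 70 and 10, without 0w replicate 1 they were 15 and 2, without 0w replicate 2 they were 73 and 22, and without 0w replicate 3 they were 108 and 25. Gja1 and Rab31 were the 2 genes called in each of the 6 fits that left out 1 library. Of the genes called in the main fit, 62 were called in 0 of these 6 fits and 50 in 1. Genes called higher were of lower GC content than all genes (median 44.5% against 49.3%) and genes called lower of higher GC content (53.7%). With the trend of fold change on GC content removed, 23 genes were called higher and 8 lower.

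**Figure D2:**
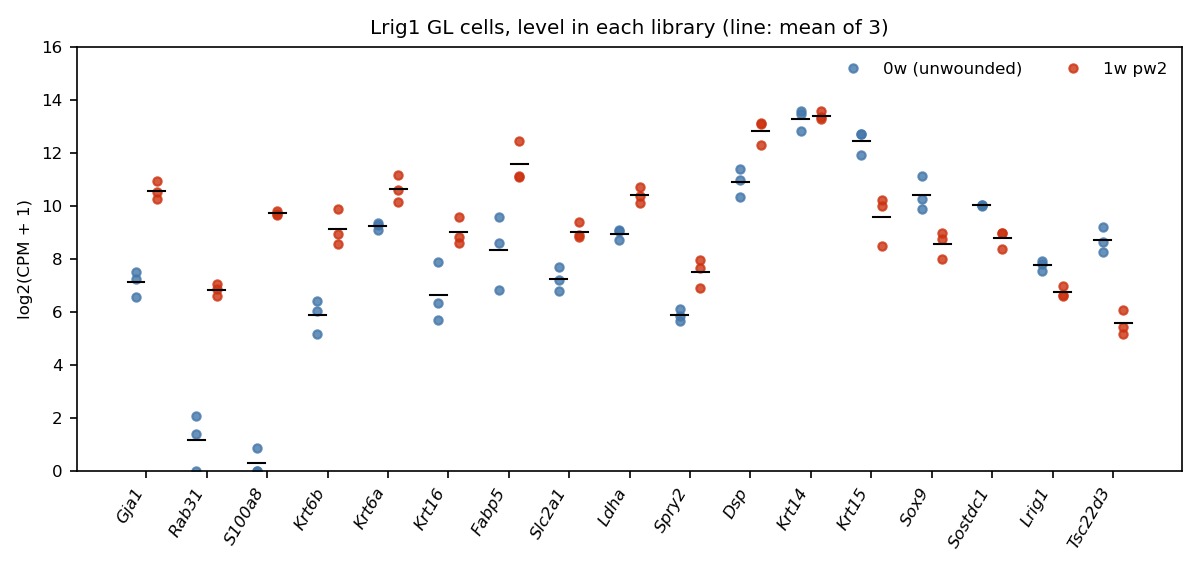
Log2(CPM + 1) of 17 genes in each of the 3 libraries of 0w (blue) and 1w pw2 (red), with the mean as a black line. For Gja1, Rab31, S100a8, Krt6b, Fabp5, Slc2a1, Spry2 and Dsp every 1w pw2 library lies above every 0w library, for Krt15, Sox9, Sostdc1, Lrig1 and Tsc22d3 every 1w pw2 library lies below, and for Krt14 the groups overlap.

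Gja1 and Rab31, the genes called whichever library was left out, are described first, though neither was called with 5 surrogate variables. Gja1, which encodes connexin 43, the main gap junction protein of basal keratinocytes, lies at chr10:56377330-56402513 on the plus strand of GRCm38. It was at 150.4, 94.2 and 181 CPM in the 3 libraries of 0w and at 1239.7, 1974 and 1463 CPM at 1w pw2. The lowest library after the second wound was thus several-fold above the highest unwounded one. Its log2 fold change was 3.46 ± 0.41 (SE, n = 3 against 3; edgeR adjusted p = 0.00223), from a mean of 142 ± 44.1 CPM (SD) to 1559 ± 377 CPM, and the adjusted p lay between 0.00521 and 0.0204 over the fits without 1 library. Rab31, a Rab GTPase of endosome and trans-Golgi traffic at chr17:65651729-65772752 on the minus strand, was at 0, 1.62 and 3.20 CPM at 0w and at 116, 130.2 and 96.0 CPM at 1w pw2. With 9 counts over the 3 unwounded libraries it was near the limit of detection before wounding and present in each library after. Its log2 fold change was 6.14 ± 0.77 (SE, n = 3 against 3; edgeR adjusted p = 0.00223).

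Gja1 was the only gap junction gene called. Of 9 members tested, 5 had a positive and 4 a negative log2 fold change, 1 was called, and the list's median was 0.07. Gjb2, connexin 26, was at 0, 20.3 and 51.2 CPM at 0w and at 322, 548 and 145 CPM at 1w pw2, with an adjusted p of 0.0799 in edgeR's test. The test of a difference between connexins was not made.

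The sequence upstream of the Gja1 start site is shown because of its single match to the AP-1 letters TGANTCA (in capitals; both strands searched), the letters recognised by Fos and Jun dimers. It covers chr10:56377050-56377299 of GRCm38.p6, plus strand, as given by RefSeq, and the match begins 19 bases before the annotated start.
Gja1: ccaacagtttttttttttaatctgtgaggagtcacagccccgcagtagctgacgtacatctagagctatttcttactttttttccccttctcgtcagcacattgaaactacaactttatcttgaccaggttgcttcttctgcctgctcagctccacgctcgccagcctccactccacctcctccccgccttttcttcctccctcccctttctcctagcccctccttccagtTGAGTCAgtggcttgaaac
Of all 32851 promoters that RefSeq lists here, 6.75% hold TGANTCA in the same 250 bases, as do 4.65% of those of genes tested, 5.88% of the 119 promoters of genes called higher and 6.98% of the 43 promoters of genes called lower. The share at the genes called higher was close to that of the table as a whole. A match is a string of letters and no measured site.

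Genes of the AP-1 and immediate early group were not called. Of 19 members tested, 12 had a positive and 7 a negative log2 fold change, with a median of 0.26 and 3 at an unadjusted p under 0.05 in edgeR's test. Fos was at 0.513, 86.5 and 204 CPM at 0w and at 366, 329 and 608 CPM at 1w pw2, and Jun at 96.5, 293 and 115 CPM against 355, 253 and 370.3 CPM. All 3 libraries of 1w pw2 stood above the unwounded ones for Fos, whose 0w values were widely spread, while the groups overlapped for Jun; the adjusted p were 0.367 and 0.30 in edgeR's test. Fosl1, an AP-1 partner that keratinocytes raise at wound edges, had no count at 0w and 20.8, 16.5 and 11.2 CPM at 1w pw2. Against a floor of 3 counts over the unwounded libraries this is at least 33.1-fold higher, and its adjusted p was 0.121. Egr1 was at a mean of 485 CPM at 0w and 353 CPM at 1w pw2 (adjusted p = 0.637).

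Of the 4 wound keratins, Krt6b rose and the other three were not called. Krt6b, a partner of type I keratins in stressed epithelium at chr15:101676023-101680287 on the minus strand, was at 64.7, 82.8 and 35.2 CPM at 0w and at 483, 935 and 377 CPM at 1w pw2. The groups were far apart, with a log2 fold change of 3.29 ± 0.66 (SE, n = 3 against 3; edgeR adjusted p = 0.0260). Krt6a was at 539.9, 657 and 621 CPM at 0w and at 1570.1, 2293 and 1121 CPM at 1w pw2, and Krt16 at 79.6, 50.8 and 236 CPM against 453, 773 and 390.0 CPM. Neither pair of groups overlapped, and their log2 fold changes of 1.46 ± 0.46 and 2.15 ± 0.68 had adjusted p of 0.111 and 0.113. Krt17, which unwounded follicle cells also make in quantity, was at 2028, 4179 and 2308 CPM at 0w and at 1769, 1529 and 1423 CPM at 1w pw2, a log2 fold change of -0.85 ± 0.48 (adjusted p = 0.352). Krt6b was called in 1 of the 6 fits without 1 library, and kept its call when the trend on GC content was removed (adjusted p = 0.0327). Krt6a and Krt6b are near copies of each other, and how the authors' counting shared reads between them was not tested.

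S100a8 had the highest log2 fold change of all genes tested. S100a8, a subunit of the antimicrobial calprotectin complex made by neutrophils and by injured keratinocytes, had 2 counts over the 3 unwounded libraries and 5290 over the 3 libraries of 1w pw2. Its levels were 0, 0.812 and 0 CPM at 0w and 888, 804 and 829 CPM at 1w pw2, with the latter 3 within a narrow range. The ratio of the groups was 2503 with a 95% counting interval of 692 to 20670.2, which covers counting error only, and the edgeR adjusted p was 0.0167. Its partner S100a9 had no count at 0w and was at 93.9, 7.86 and 23.7 CPM at 1w pw2, at least 80.7-fold higher, with an adjusted p of 0.108. The immune markers Ptprc and Cd52 together reached 0.472 to 17.1 CPM at 1w pw2. Their part in the S100a8 result was not tested. Of 14 alarmins and antimicrobial genes tested, 7 had a positive and 7 a negative log2 fold change, and S100a8 was the only one called.

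Of 23 genes of spinous and granular differentiation tested, 7 had a positive and 16 a negative log2 fold change, with a median of -0.74. Sprr2a3, a small proline-rich protein of the cornified envelope, was called higher. It was at 0, 4.47 and 0.640 CPM at 0w and at 111, 99.5 and 145 CPM at 1w pw2, a log2 fold change of 5.93 ± 1.24 (SE, n = 3 against 3; edgeR adjusted p = 0.0286). Sprr2a3 has close paralogues, so its value is uncertain where reads fit more than 1 copy. Krt1 and Krt10, the keratins of the spinous layer, were not called: Krt1 was at 1127, 2862 and 5794 CPM at 0w and at 3361, 3364 and 3166 CPM at 1w pw2, with a log2 fold change of 0.02 ± 0.46 that turned negative under 10 of the alternative analyses. Krt10 had a log2 fold change of 0.31 ± 0.49 (adjusted p = 0.768), which turned to -0.12 without 0w replicate 1 and to -0.23 with 5 surrogate variables. The unwounded libraries differed among themselves in both keratins far more than the wounded ones. Serpinb3d, a protease inhibitor with close paralogues, had 2 counts at 0w and 775 at 1w pw2, a ratio of 367 with a 95% counting interval of 101 to 3033 (edgeR adjusted p = 0.0164).

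Sostdc1 was the gene called lower among the markers of the junctional zone. Of 14 junctional zone and infundibulum genes tested, 3 had a positive and 11 a negative log2 fold change, with a median of -0.93 and 1 call. Their summed level was 10401 to 15226 CPM at 0w and 6875 to 7199.6 CPM at 1w pw2, so the groups did not overlap. Sostdc1, a secreted inhibitor of BMP and Wnt signals, was at 1059, 1032 and 1058 CPM at 0w and at 502, 508 and 329 CPM at 1w pw2. The unwounded libraries were almost equal and lay above the wounded ones, with a log2 fold change of -1.23 ± 0.29 (SE, n = 3 against 3; edgeR adjusted p = 0.0485). The transcript of Lrig1 itself, a negative regulator of ErbB receptors, was at 224, 244 and 183 CPM at 0w and at 123, 98.8 and 95.4 CPM at 1w pw2. The groups did not overlap, and the log2 fold change of -1.04 ± 0.33 had an adjusted p of 0.116. Krt79, a keratin of the upper follicle duct, was at a mean of 3001 ± 148 CPM (SD, n = 3) at 0w and 1521 ± 581 CPM at 1w pw2 (adjusted p = 0.308). Plet1, Gata6 and Postn had log2 fold changes of -0.36, -0.90 and -0.34, with adjusted p of 0.745, 0.448 and 0.661. Ly6a, which encodes the surface protein Sca-1 of infundibular and interfollicular keratinocytes, was at 326, 186 and 423 CPM at 0w and at 607, 772 and 508 CPM at 1w pw2, with all wounded libraries above the unwounded ones (adjusted p = 0.109).

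Of 13 bulge genes tested, 12 had a negative log2 fold change and 1 a positive one, with a median of -1.10. Sox9, a transcription factor needed for follicle stem cells, was at 2264, 1221 and 934 CPM at 0w and at 504, 254 and 427 CPM at 1w pw2. It fell by 1.90 ± 0.42 on the log2 scale (SE, n = 3 against 3; edgeR adjusted p = 0.0362). Nfatc1, which holds bulge stem cells in quiescence, was at 688, 506 and 448 CPM at 0w and at 277, 112 and 197 CPM at 1w pw2, just outside the threshold with an adjusted p of 0.0532. Krt15, a basal keratin that is enriched in the bulge, lies at chr11:100131758-100135928 on the minus strand. It was at 6749.6, 6709 and 3863 CPM at 0w and at 1021, 358 and 1182 CPM at 1w pw2, a log2 fold change of -2.76 ± 0.61 (SE, n = 3 against 3; edgeR adjusted p = 0.0360). Of the 14 basal epidermis genes Krt15 was the only one called, and the list's median was -0.17. Krt5 and Krt14, the keratin pair of all basal keratinocytes, had log2 fold changes of -0.19 ± 0.24 and 0.08 ± 0.25, and their signs changed with the analysis (Krt5 with the GC trend removed and with 5 surrogate variables, Krt14 without 0w replicate 2 and without 1w pw2 replicate 1). Krt15 and Sox9 were each called in 1 of the 6 fits without 1 library.

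**Figure D3:**
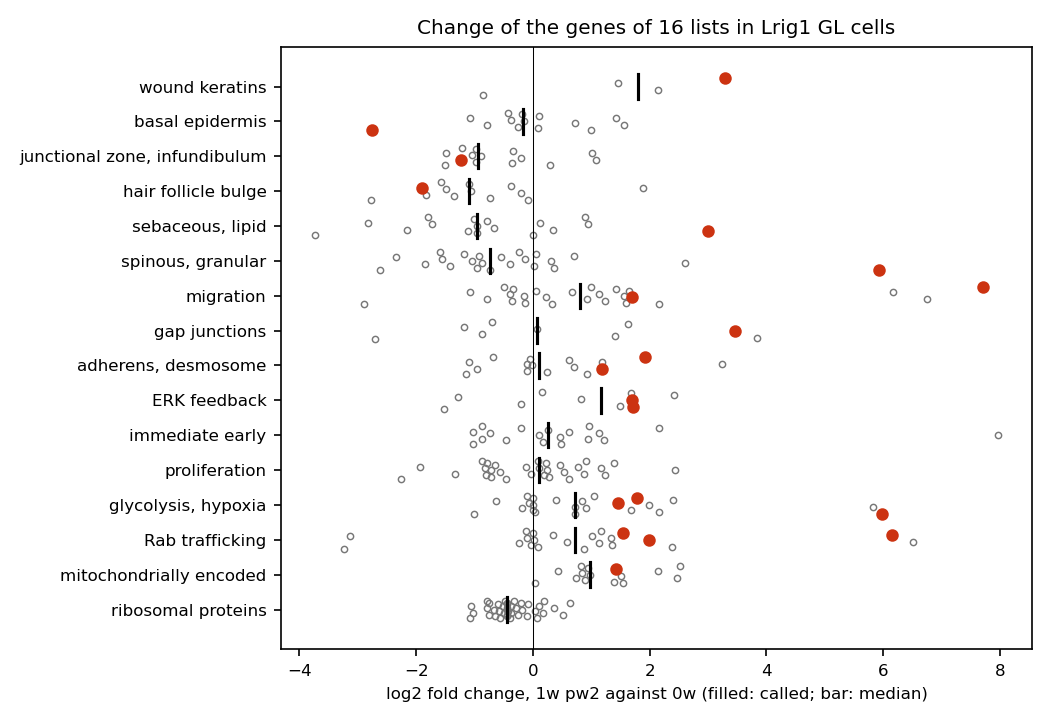
Log2 fold change of 1w pw2 against 0w for each tested gene of 16 lists, with called genes filled in red and the median of each list as a black bar. The medians of junctional zone, bulge and sebaceous genes lie left of 0, those of wound keratins, migration, glycolysis, Rab and mitochondrially encoded genes right of 0, and few genes of any list were called.

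Of 17 sebaceous and lipid genes tested, 11 had a negative and 6 a positive log2 fold change, with a median of -0.95. Fabp5, the epidermal fatty acid-binding protein, went the other way. It was at 384, 112 and 769.9 CPM at 0w and at 2261, 5663 and 2174 CPM at 1w pw2, a log2 fold change of 3.00 ± 0.66 (SE, n = 3 against 3; edgeR adjusted p = 0.0357). Fabp5 is not restricted to sebocytes and is made across stressed epidermis. Summed markers of mature sebocytes were 319 to 1462 CPM at 0w, with the top value in 0w replicate 1, and 445 to 514 CPM at 1w pw2. Summed markers of the hair shaft and inner root sheath were 449 to 959 CPM at 0w and 615 to 946 CPM at 1w pw2. The medians of the log2 fold changes were -2.31 over the 6 tested sebocyte markers and -1.42 over the 11 tested hair shaft and root sheath markers, and none of them was called, with 2 and 6 at an unadjusted p under 0.05 in edgeR's test. The part of either cell type in the results was not tested.

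Glycolysis and hypoxia genes gave 3 calls, all of them higher, among 23 genes tested. Of the 23, 17 had a positive and 6 a negative log2 fold change, with a median of 0.73 against -0.06 over all genes. Of all genes tested, 6853 had a positive and 7442 a negative log2 fold change, and 1.23% were called. Slc2a1, the glucose transporter GLUT1, was at 109.8, 208 and 145 CPM at 0w and at 449, 663 and 477 CPM at 1w pw2, a log2 fold change of 1.78 ± 0.37 (SE, n = 3 against 3; edgeR adjusted p = 0.0282). Ldha, the lactate dehydrogenase subunit that favours lactate, was at 545, 421 and 527 CPM at 0w and at 1326, 1694 and 1105 CPM at 1w pw2, a log2 fold change of 1.47 ± 0.27 (edgeR adjusted p = 0.0200). Slc16a3, the lactate exporter MCT4, had 2 counts over the unwounded libraries and 166 at 1w pw2, a ratio of 78.5 with a 95% counting interval of 21.4 to 654 (edgeR adjusted p = 0.0199). These 3 genes stand for the entry of glucose, the making of lactate and its export. All 3 kept their call when the trend on GC content was removed, with adjusted p of 0.0232, 0.0232 and 0.0278. Hif1a, the oxygen-sensing transcription factor known to act on all 3, was at 119, 289.9 and 378 CPM at 0w and at 569, 1481 and 805 CPM at 1w pw2, a log2 fold change of 1.86 ± 0.40 (edgeR adjusted p = 0.0325), and lost its call with the GC trend removed (adjusted p = 0.442). Of the enzymes in between, Gapdh and Pkm were not called. Gapdh had a mean of 154 CPM at 0w and 143 CPM at 1w pw2 (edgeR adjusted p = 0.958), and Pkm 431 CPM and 713 CPM (adjusted p = 0.212). Hif1a protein is set mainly by its stability, which RNA does not measure. Among 11 transcription factors of wound repair tested, Hif1a was called higher and Sox9 lower, with a median of 0.44.

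The sequences before the start sites of these 3 genes are shown with every ACGTG and GCGTG in capitals, searched on both strands. These are the cores that HIF dimers recognise, and the E-box CACGTG, recognised by other factors, contains the first of them. Coordinates are of GRCm38.p6, plus strand, from RefSeq, and the stretches stop where GENCODE M21 annotates an exon: chr4:119108495-119108710 for Slc2a1, chr7:46845554-46845803 for the first of the 2 start sites of Ldha, and chr11:120948817-120949052 for Slc16a3.
Slc2a1: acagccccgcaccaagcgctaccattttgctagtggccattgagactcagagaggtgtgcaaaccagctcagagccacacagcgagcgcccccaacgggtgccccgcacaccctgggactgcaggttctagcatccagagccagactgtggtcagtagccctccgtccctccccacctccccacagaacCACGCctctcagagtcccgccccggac
Ldha: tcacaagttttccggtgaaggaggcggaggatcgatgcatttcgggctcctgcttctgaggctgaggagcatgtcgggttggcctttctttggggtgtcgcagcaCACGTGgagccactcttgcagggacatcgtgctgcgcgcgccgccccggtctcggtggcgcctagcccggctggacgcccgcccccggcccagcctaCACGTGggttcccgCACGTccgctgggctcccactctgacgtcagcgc
Slc16a3: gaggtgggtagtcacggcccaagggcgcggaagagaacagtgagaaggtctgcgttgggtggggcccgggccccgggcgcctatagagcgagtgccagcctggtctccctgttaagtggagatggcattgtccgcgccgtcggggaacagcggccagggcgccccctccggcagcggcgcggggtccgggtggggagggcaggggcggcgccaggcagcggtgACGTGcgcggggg
In the full 250 bases before the start site, Slc2a1 has 2 matches and Slc16a3 2, of which 1 each lies in the stretch shown, and Ldha has 5, all shown. Each CACGTG holds a core on both strands and counts as 2 matches, so the capitals of Ldha mark fewer places than matches. Such cores are common: 56.0% of promoters of genes tested hold at least 1, as do 67.2% of those of genes called higher and 65.1% of those of genes called lower. The shares at higher and lower genes were thus close to each other.

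Itgb1 and Mmp3 rose among the genes of adhesion and migration. Of 26 migration genes tested, 17 had a positive and 9 a negative log2 fold change, with a median of 0.80 and 2 calls. Itgb1, the beta chain shared by the main collagen, laminin and fibronectin integrins, was at 72.9, 153 and 165 CPM at 0w and at 243, 524 and 498 CPM at 1w pw2, a log2 fold change of 1.69 ± 0.39 (SE, n = 3 against 3; edgeR adjusted p = 0.0398). Mmp3, a matrix metalloproteinase of wound sites, had no count at 0w and was at 22.2, 2.99 and 15.8 CPM at 1w pw2, at least 24.9-fold higher against a floor of 3 counts (edgeR adjusted p = 0.0285). Itgav and Itga6, alpha chains that bind vitronectin and laminin, had log2 fold changes of 2.17 ± 0.64 and 1.42 ± 0.39, with adjusted p of 0.0949 and 0.0800. Itgb1 and Mmp3 were called in 1 and 0 of the 6 fits without 1 library. Adam10, a sheddase that cleaves cadherins, Notch and ErbB ligands, was at 213, 208 and 238 CPM at 0w and at 633, 935 and 796 CPM at 1w pw2 (log2 fold change 1.84 ± 0.31, edgeR adjusted p = 0.0164).

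Dsp and Dsc3 were called higher among the genes of desmosomes and adherens junctions. Dsp, desmoplakin, which ties desmosomes to keratin filaments, was at 1287, 2681 and 2020.1 CPM at 0w and at 4975, 8953 and 8671 CPM at 1w pw2, a log2 fold change of 1.92 ± 0.39 (SE, n = 3 against 3; edgeR adjusted p = 0.0261). Dsc3, a desmosomal cadherin of basal cells, was at a mean of 728 ± 68.8 CPM (SD, n = 3) at 0w and 1662 ± 271 CPM at 1w pw2 (log2 fold change 1.19 ± 0.23, adjusted p = 0.0233). Perp, a further desmosome protein, passed the adjusted p (0.0360) at a log2 fold change of 0.93 ± 0.21, under the size threshold. Jup and Cdh3, plakoglobin and P-cadherin, had log2 fold changes of -1.09 ± 0.34 and -0.95 ± 0.39, with adjusted p of 0.111 and 0.201. Of the 16 members of the list 8 had a positive and 8 a negative log2 fold change. Dsp kept its call with the GC trend removed (adjusted p = 0.0397) and Dsc3 did not (adjusted p = 0.529).

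Spry2, Rasa1 and Tgfbr1 were called among the signalling lists. Of 10 genes of ERK feedback tested, 7 had a positive log2 fold change, with a median of 1.16, and 2 were called. Spry2, a feedback inhibitor of receptor tyrosine kinases, was at 67.7, 49.1 and 57.0 CPM at 0w and at 244, 117 and 203 CPM at 1w pw2 (log2 fold change 1.70 ± 0.33, edgeR adjusted p = 0.0232). Rasa1, which turns off Ras, was at 88.3, 82.4 and 59.6 CPM at 0w and at 203, 262 and 292 CPM at 1w pw2 (log2 fold change 1.71 ± 0.39, adjusted p = 0.0396), but its fold change turned to -0.013 with the GC trend removed. Mapk6, the atypical kinase ERK3, was at 100.1, 111 and 72.4 CPM at 0w and at 251, 563 and 518 CPM at 1w pw2, a log2 fold change of 2.23 ± 0.34 (SE, n = 3 against 3; edgeR adjusted p = 0.0135). Gng5, a gamma subunit of heterotrimeric G proteins, was at 167, 126 and 188 CPM at 0w and at 747, 1725 and 893 CPM at 1w pw2 (log2 fold change 2.81 ± 0.45, adjusted p = 0.0135). Tgfbr1, the type I receptor for TGF-beta, was at 4.62, 28.4 and 14.1 CPM at 0w and at 65.1, 162 and 218 CPM at 1w pw2 (log2 fold change 3.22 ± 0.73, adjusted p = 0.0389), the only call among 23 genes of TGF-beta and BMP signalling. None of 12 EGFR ligands and receptors and none of 24 Wnt genes was called by edgeR, with 2 and 1 of them at an unadjusted p under 0.05.

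Genes of membrane traffic followed. Of 22 Rab and related genes tested, 16 had a positive log2 fold change, with a median of 0.73, and Rab31, Rab18 and Rab21 were called. Rab18, of lipid droplets and the endoplasmic reticulum, was at 238, 158 and 190.2 CPM at 0w and at 658, 949 and 729 CPM at 1w pw2, and Rab21, of integrin endocytosis, at 53.4, 55.6 and 39.7 CPM against 147, 156 and 130.2 CPM. Both sets of wounded libraries lay clear of the unwounded ones, with edgeR adjusted p of 0.0242 and 0.0471. Kif5b, a kinesin heavy chain that carries cargo along microtubules, had a mean of 184 ± 11.3 CPM (SD, n = 3) at 0w and 517 ± 79.5 CPM at 1w pw2 (adjusted p = 0.0164). Gorab, a Golgi protein, had 1 count at 0w and 113 at 1w pw2, a ratio of 107 with a 95% counting interval of 18.8 to 4259.9. Grip1, an adaptor with several PDZ domains, was at 1.03, 0.812 and 0 CPM at 0w and at 8.49, 33.3 and 50.6 CPM at 1w pw2 (log2 fold change 5.43 ± 0.87, adjusted p = 0.0135).

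Pdia3 was the gene called among those of the unfolded protein response. Pdia3, a disulphide isomerase that folds glycoproteins, was at 291, 268 and 254 CPM at 0w and at 517, 1386 and 883 CPM at 1w pw2 (log2 fold change 1.78 ± 0.32, edgeR adjusted p = 0.0191), where 13 of the 20 genes of the list had a positive log2 fold change. Selenot, a selenoprotein of the same compartment, was at a mean of 41.2 ± 18.2 CPM (SD, n = 3) at 0w and 194 ± 50.5 CPM at 1w pw2 (adjusted p = 0.0164). Syvn1, a gene outside that list that encodes a ubiquitin ligase of protein degradation at the endoplasmic reticulum, fell: it was at 216, 168 and 110.2 CPM at 0w and at 40.6, 40.8 and 34.9 CPM at 1w pw2, a log2 fold change of -2.08 ± 0.37 (adjusted p = 0.0164).

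Further genes that the rule for named genes took in had varied roles. Tcim, also named TC1, a small positive regulator of Wnt signalling, was at 15.9, 17.9 and 31.4 CPM at 0w and at 165, 333 and 188 CPM at 1w pw2 (log2 fold change 3.40 ± 0.51, edgeR adjusted p = 0.0119). Tent5a, a poly(A) polymerase, had a mean of 21.7 ± 3.25 CPM (SD, n = 3) at 0w and 172 ± 47.8 CPM at 1w pw2 (log2 fold change 2.99 ± 0.48, adjusted p = 0.0135). Supt16, a subunit of the histone chaperone FACT, was at 0, 4.47 and 8.33 CPM at 0w and at 134, 128 and 101 CPM at 1w pw2 (log2 fold change 4.84 ± 0.85, adjusted p = 0.0164). Xrn2, a nuclear exonuclease, had a log2 fold change of 2.42, Ddx3x, an RNA helicase, of 2.24, Tspan3, a tetraspanin, of 2.58, Naa30, an N-terminal acetyltransferase, of 2.10, Dcun1d5, a factor in cullin neddylation, of 2.02, and Tomm70a, a receptor of the mitochondrial import pore, of 1.96. Each of these 6 had an edgeR adjusted p of 0.0164. Jarid2, a partner of Polycomb complex PRC2, was at 12.3, 30.5 and 29.5 CPM at 0w and at 105, 170.2 and 84.2 CPM at 1w pw2 (log2 fold change 2.31 ± 0.49, adjusted p = 0.0315). It was the only call among 24 genes of Polycomb repression and H2A deubiquitination, of which 9 had a positive and 15 a negative log2 fold change.

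Among the genes that fell, Tsc22d3, a glucocorticoid-induced leucine zipper protein, was at 309, 586 and 395 CPM at 0w and at 34.9, 42.3 and 66.4 CPM at 1w pw2. Every wounded library was several-fold below every unwounded one, with a log2 fold change of -3.17 ± 0.59 (SE, n = 3 against 3; edgeR adjusted p = 0.0199). Tecr, which completes the elongation of very long fatty acids, was at 797, 517 and 678 CPM at 0w and at 286, 150.4 and 153 CPM at 1w pw2 (log2 fold change -1.76 ± 0.29, adjusted p = 0.0164). Ephx1, microsomal epoxide hydrolase, was at 262, 298 and 325 CPM at 0w and at 93.9, 84.6 and 85.5 CPM at 1w pw2 (log2 fold change -1.75 ± 0.32, adjusted p = 0.0198). Krt80, a keratin of differentiating epithelia, had a mean of 232 ± 89.3 CPM (SD, n = 3) at 0w and 51.3 ± 8.56 CPM at 1w pw2 (adjusted p = 0.0229). Gas7, an adaptor of the actin cytoskeleton, Slc29a1, a nucleoside transporter, Cnnm4, a magnesium transporter, Smim7, a small membrane protein, and Nudt17, a Nudix hydrolase, had log2 fold changes of -1.94, -2.13, -2.13, -1.68 and -3.46, with adjusted p between 0.0214 and 0.0285.

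Mitochondrially encoded transcripts all had a positive log2 fold change (15 of 15, median 0.97), and mt-Rnr1, the small mitochondrial ribosomal RNA, was called. It was at 232, 203 and 204 CPM at 0w and at 548, 682 and 485 CPM at 1w pw2 (log2 fold change 1.42 ± 0.32, edgeR adjusted p = 0.0386), and its fold change turned to -0.67 with the GC trend removed. Of 31 nuclear genes of oxidative phosphorylation 12 had a positive and 19 a negative log2 fold change (median -0.22), and of 40 ribosomal protein genes 8 had a positive and 32 a negative one (median -0.44). None of either list was called by edgeR, with 12 and 10 at an unadjusted p under 0.05. Of 30 proliferation genes, 16 had a positive and 14 a negative log2 fold change, with a median of 0.10 and 0 calls in edgeR's test (6 at an unadjusted p under 0.05). Interferon and antigen presentation (11 tested), cell polarity (23 tested) and NRF2 antioxidant genes (20 tested) had 0 calls too, with 2, 2 and 2 at an unadjusted p under 0.05.

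Over the 34 lists, 519 genes were tested and 25 called, 22 higher and 3 lower. By the same rule 1.23% of all genes tested were called. The lists were written with earlier results of these data known, so no excess over that share is read from these counts. The same holds for the counts of calls, the counts of signs and the medians within single lists. No median of the 27 lists of epidermal genes changed when genes with 3 or fewer unwounded counts were set to their bound or counted ratio. A median moves only where such a gene stands at the middle or crosses it, so this says little about the genes themselves.

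The same genes had been followed through the first healing, against the same 0w libraries, so the values at different times are not independent of each other. The 142 genes called higher at 1w pw2 had a median log2 fold change of 1.11 at 1w pw1, 1.22 at 2w pw1, 0.81 at 4w pw1 and 1.85 at 8w pw1. The 34 genes called lower had medians of -1.28, -0.80, -0.57 and -1.36 at these times. Medians over all genes tested lay between -0.05 and -0.01. By the same edgeR rule, 31 of all genes tested (0.217%) were called against 0w at 1w pw1, 0 (0.0%) at 2w pw1, 6 (0.0419%) at 4w pw1 and 404 (2.82%) at 8w pw1, and 1580, 1499, 1197 and 3279 genes had an unadjusted p under 0.05. The 8w pw1 libraries had 10.9% to 14.4% of their counts in mitochondrially encoded transcripts, above each library of 0w and of 1w pw2, and TMM scaling factors of 0.821 to 0.939 against 1.03 to 1.09 at 0w. The part of these in the 8w pw1 count and medians was not tested.

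Single genes took different courses. Gja1 lay between 543 and 923 CPM at 1w pw1, between 335 and 608 CPM at 8w pw1 and between 1239.7 and 1974 CPM at 1w pw2, so that each second-wound library was above each of the 12 libraries of the first healing. Gja1 differed from 0w by 2.41 on the log2 scale at 1w pw1 (adjusted p = 0.0157) and by 1.73 at 8w pw1 (adjusted p = 0.0304). Krt6b was called higher at 1w pw1 and 1w pw2 and was below its unwounded range at 8w pw1: it was at 328 to 1675 CPM at 1w pw1, at 9.2 to 28.9 CPM at 8w pw1 and at 377 to 935 CPM at 1w pw2. Spry2 was at 78.8 to 87.7 CPM at 1w pw1, at 178 to 274 CPM at 8w pw1 and at 117 to 244 CPM at 1w pw2. Slc2a1 was at 739 to 991 CPM at 1w pw1, above its level at 1w pw2 of 449 to 663 CPM, and at 188 to 385 CPM at 8w pw1. Krt15 was at 186 to 1189 CPM at 1w pw1 and at 1527 to 2350.0 CPM at 8w pw1, and Lrig1 at 89.4 to 155 CPM and 74.3 to 124 CPM, both below the unwounded range. S100a8 was at 342 to 2120.1 CPM at 1w pw1 and at 0 to 297 CPM at 8w pw1.

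**Figure D4:**
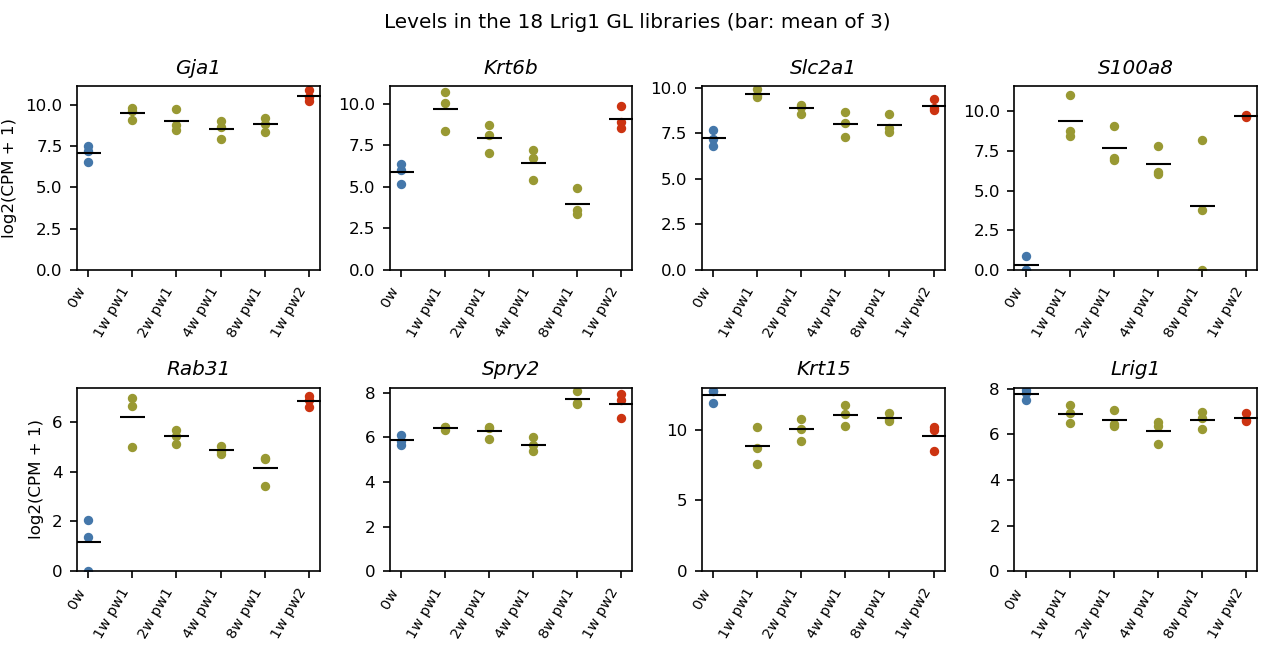
Log2(CPM + 1) of 8 genes in the 3 libraries of each time point, 0w (blue), first healing (olive) and 1w pw2 (red), with the mean as a black bar. Gja1 is highest at 1w pw2, Krt6b and S100a8 are lower at 8w pw1 than at 1w pw1 in each library, Spry2 is raised at 8w pw1 already, and Krt15 and Lrig1 lie below 0w at each later time.

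Direct tests between time points gave 1 call. Of the 14306 genes, 1 (0.00699%) differed between 1w pw2 and 8w pw1 by edgeR's adjusted p, with 818 at an unadjusted p under 0.05. That gene was Krt6b, with a log2 difference of 5.19 (adjusted p = 0.0216). No gene differed between 1w pw2 and 1w pw1 in edgeR's test (0.0%), with 1269 at an unadjusted p under 0.05, and no other tool was run on these contrasts. For Gja1 the log2 difference of 1w pw2 from 8w pw1 was 1.73 (adjusted p = 0.354).

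To ask whether a change at 1w pw2 was particular to Lrig1 GL cells, it was set against the change in Lgr5 GL cells, the progeny of stem cells of the lower follicle, from mice with Lgr5-EGFP-ires-CreERT2 and the same reporter, labelled and wounded in the same way (3 libraries per group). In a joint model of 36 libraries, 25 of 16153 genes (0.155%) differed in their change between the populations by edgeR's adjusted p. Of these, 23 had the more positive change in Lrig1 GL cells and 2 the more negative one. The 23 include Gm28437, Gm28661 and Gm29216, not called in Lrig1 GL cells alone. Their log2 fold changes were 1.61, 1.73 and 1.26 in Lrig1 GL cells and -1.84, -1.95 and -2.03 in Lgr5 GL cells. Whether reads of these symbols are shared with other sequences was not tested. Among the 25 were 17 of the 142 genes called higher and 1 of the 34 genes called lower in Lrig1 GL cells. Both tests use the same Lrig1 libraries, so this overlap is partly built in and is no independent support. All levels are CPM scaled within each population's own table. Gja1 was at 563, 507 and 845 CPM at 0w and at 829, 479 and 562 CPM at 1w pw2 in Lgr5 GL cells, with the groups overlapping. The difference of the 2 changes was 3.53 ± 0.58 (SE; edgeR adjusted p = 0.00816). Side by side, on these separate scales and untested, the unwounded Lrig1 GL libraries lay below these 6 Lgr5 GL libraries in Gja1 and the 1w pw2 Lrig1 GL libraries above them. Mapk6 was at 111, 109 and 91.0 CPM at 0w and at 69.9, 103 and 91.5 CPM at 1w pw2 in Lgr5 GL cells, a difference of changes of 2.51 ± 0.43 (adjusted p = 0.00816). Rab31 was at 34.0, 34.4 and 18.6 CPM at 0w and at 100.2, 35.8 and 42.2 CPM at 1w pw2 in Lgr5 GL cells, a difference of 5.17 ± 0.85 (adjusted p = 0.00816).

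Further genes whose change differed were Lamp2, Erp44, Hdac3 and Sox13, chosen after their values were seen. Lamp2, a lysosomal membrane protein, was at 378 to 493 CPM at 0w and at 244 to 286 CPM at 1w pw2 in Lgr5 GL cells, while in Lrig1 GL cells it was at 402 to 539 CPM and at 1213 to 1690.5 CPM. Its difference of changes was 2.49 ± 0.43 (edgeR adjusted p = 0.00816). Pdia3 and Erp44, both of disulphide formation, had differences of 2.07 ± 0.41 and 2.41 ± 0.47, each with an adjusted p of 0.0252. The negative differences were those of Hdac3, a histone deacetylase (-2.50 ± 0.54), and Sox13, a SoxD transcription factor (-4.56 ± 0.98), each with an adjusted p of 0.0465. Krt6b, Krt15, S100a8, Slc2a1, Dsp and Spry2 had differences of 3.06, -2.27, 11.10, 1.94, 2.26 and 1.80, with adjusted p between 0.0648 and 0.191. Leaving out 1 of the 12 libraries gave between 0 and 52 genes, with 0 genes without Lgr5 1w pw2 replicate 3 (1810 at an unadjusted p under 0.05 in edgeR's test), 1 without Lgr5 1w pw2 replicate 2, which was Grip1, 12 without Lgr5 1w pw2 replicate 1, 3 without Lrig1 1w pw2 replicate 2, 14 without Lrig1 1w pw2 replicate 3, 10 without Lrig1 0w replicate 1, 40 without Lrig1 0w replicate 2, 52 without Lrig1 0w replicate 3, 14 without Lgr5 0w replicate a and 4 without Lgr5 0w replicate c.

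**Figure D5:**
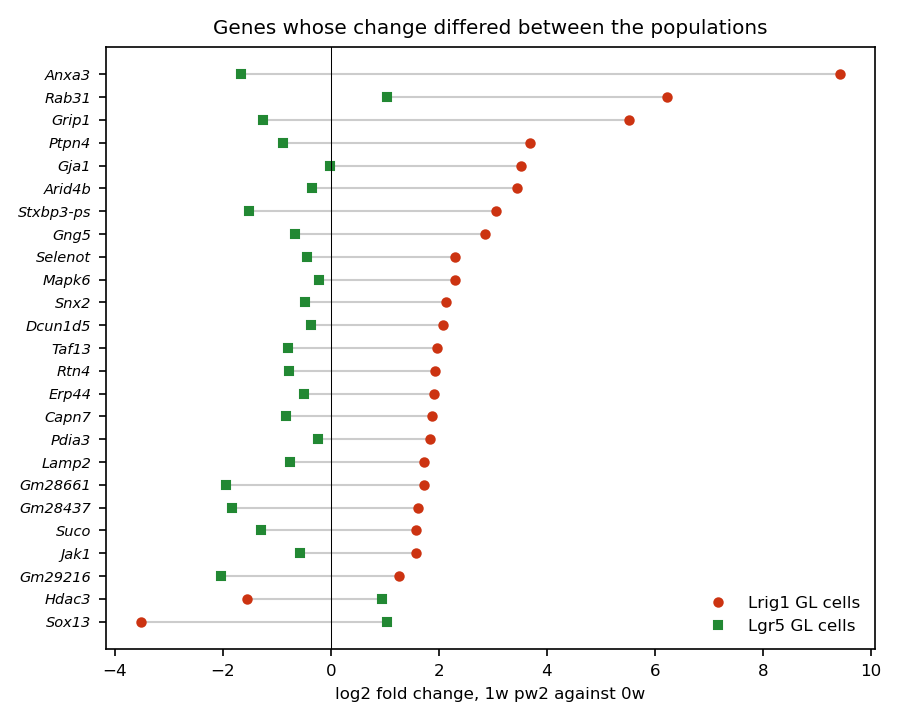
Log2 fold change of 1w pw2 against 0w in Lrig1 GL cells (red circles) and Lgr5 GL cells (green squares) for the 25 genes whose change differed between the populations in edgeR's test. In 23 of them the Lrig1 value lies to the right, with Gja1 at 3.51 against -0.02, and Hdac3 and Sox13 lie the other way.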

How the data were processed

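Mini-bulk RNA-seq (Smart-seq2 chemistry, no molecular identifiers) of sorted tdTomato+ epidermal cells was used, with 3 libraries per group. The authors trimmed reads with Trim Galore, aligned them to GRCm38 with HISAT2, used featureCounts with GENCODE M20 to assign them to genes, and deposited raw counts per gene without normalization. Strand was not used as far as the sources used here say, so overlapping genes cannot be told apart. Columns were matched to samples by name, for 15 libraries exactly and for 21 by group only, which were called replicates a, b and c. 0 columns were left unused.

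The deposited counts were fitted with edgeR 4.0.16 under R 4.3.3. The authors also used edgeR, with an sva step that the main fit here leaves out. The Lrig1 table holds 20181 genes. filterByExpr at a minimum of 10 counts kept 14306, TMM scaled the libraries (factors 0.855 to 1.09 in the 6 libraries), and a quasi-likelihood F-test was fitted on all 18 Lrig1 libraries with a prior count of 0.125, p-values being adjusted over all genes tested. CPM are counts over the total of the genes tested times the TMM factor, scaled per library. Intervals and floors cover counting error only. Populations were compared by an interaction term over 36 libraries. Genes with 0 counts at 0w are given against a floor of 3 counts over the group, and those with 1 to 3 counts as a ratio with an exact 95% interval. In a single library 3 counts equal 1.12 to 1.97 CPM, whereas the floor is 3 counts over the 0w libraries together and thus a lower level. The scripts were tested on simulated data.

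Named genes were, among called genes with a mean of at least 10 counts and groups that do not overlap, the 20 higher and 10 lower with the smallest p (symbols Gm plus a digit or ending in Rik left out), every called gene of a list, and 1 fixed set of keratins, compartment markers and signalling genes. The members and lists were chosen with earlier results of these data known. Genes that the text names outside this rule are members of the lists or were picked after their values were seen. Positions are from GENCODE M21 (GRCm38) and promoters from RefSeq (GRCm38.p6). 130 of the 176 called genes had a promoter entry. An exact permutation test of 1 gene over 3 against 3 libraries has a smallest two-sided p of 0.1. Alternatives were the likelihood ratio test, DESeq2 1.42.0, limma-voom (limma 3.58.1), sva 3.50.0, other scalings and filters, fits on 6 libraries, trend removal for GC content and length, and leaving out each library. Some items are not reported here.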

Additional observations from a re-analysis of the deposited data

Results flagged for a closer look

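For 8 named genes the change from 0w to 1w pw2 differed between Lrig1 GL and Lgr5 GL cells by edgeR's interaction test, each more positive in Lrig1 GL cells. The differences on the log2 scale were 3.53 for Gja1, 5.17 for Rab31, 2.51 for Mapk6, 6.78 for Grip1, 3.53 for Gng5, 2.74 for Selenot, 2.44 for Dcun1d5 and 2.07 for Pdia3. All 8 had been called higher in Lrig1 GL cells, and the same Lrig1 libraries enter this test. How the genes were picked thus favours a more positive value in Lrig1 GL cells. The interaction test called 0 genes without Lgr5 1w pw2 replicate 3 and 1 without Lgr5 1w pw2 replicate 2. Groups of 3 libraries were not screened for single outlying samples.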

How the results depend on the processing

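Counts of genes called higher and lower were 572 and 253 with the likelihood ratio test, 685 and 358 with DESeq2, 55 and 32 with limma-voom, 3 and 0 in the fit of 6 libraries only, 1 and 0 with the replicate block on these, 0 and 0 with 5 surrogate variables (2088 genes at an unadjusted p under 0.05), 3 and 0 with 2 surrogate variables, and 23 and 8 with the GC trend removed. With the length trend removed they were 86 and 93, so that 48.0% of calls were higher against 80.7%, and at a minimum of 30 counts 189 and 78. The listed genes called, 25 as reported, were 63, 77, 12, 2, 1, 0, 2 and 10 in the same order up to the GC trend. Without 1 library the counts ran from 2 to 108 higher, 0 to 25 lower and 2 to 14 listed genes. In the difference between populations the likelihood ratio test gave 252 genes and leaving out 1 library 0 to 52.

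The median change at 8w pw1 of the genes called higher lay between 1.01 and 1.94 over all alternatives. It was taken over the genes called in the main fit each time. These were picked for standing above the same 0w libraries, which favours a positive median in advance, so the range is no independent support. Of the 176 called genes, all kept their direction wherever they were tested, except 4 with the GC trend removed. Reversed values among named genes were Rasa1 (-0.013), mt-Rnr1 (-0.67) and Krt5 (0.29) with the GC trend removed; Krt5 (0.12), Krt1 (-0.36) and Krt10 (-0.23) with 5 surrogate variables; Krt1 at -0.22 with 2 surrogate variables, -0.015 at a minimum of 30 counts, -0.00282 in 6 libraries, -0.14 with the length trend removed and -0.066 with limma-voom; and, over the fits without 1 library, Krt1 between -0.39 and 0.73, Krt10 between -0.12 and 1.20 and Krt14 between -0.13 and 0.23. The cause of these changes was not tested. Of 52 called named genes 50 lost their call without 1w pw2 replicate 2 and 43 without 0w replicate 1. With the GC trend removed 31 of the 52 lost it, and with 5 surrogate variables all did. The text gives the result without the GC trend for some of these genes only. DESeq2 also called Krt6a, Krt16, Lrig1 and Ly6a. Across genes, r of the deviations of same-numbered libraries was 0.058, -0.046 and -0.026 for replicates 1, 2 and 3. For replicate 1 it lay above the values with other-numbered libraries (-0.063 to -0.00087), and for replicates 2 and 3 below them. Genes are not replicates and each group has 3 libraries, so these values cannot decide whether same-numbered libraries share a batch. The median of all genes moved by over 0.1 with the GC trend removed (-0.18), the length trend removed (-0.19), the replicate block (0.17), limma-voom (0.22), 5 and 2 surrogate variables (0.34 and 0.15) and without 0w replicate 2 (0.11). Depth limits genes near 3 counts per group.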

Other observations

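The genes given here stand outside the lists and the rule for named genes and were chosen after their values were seen. Per1, a core gene of the circadian clock, and Tef, a transcription factor of clock output, were at 193 to 390.2 CPM and 120.4 to 253 CPM at 0w and at 12.7 to 66.1 CPM and 26.9 to 65.8 CPM at 1w pw2. Bcl6, a transcriptional repressor, was at 279 to 379 CPM at 0w and at 65.1 to 103 CPM at 1w pw2. The edgeR adjusted p were 0.0485, 0.0389 and 0.0350.

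Notch1, the receptor that drives epidermal differentiation, was at 1234, 1077 and 1153 CPM at 0w and at 574, 247 and 399 CPM at 1w pw2 (edgeR adjusted p = 0.0486). Met, the receptor for hepatocyte growth factor, was at 63.7, 129 and 157 CPM at 1w pw2, above all 3 libraries of 0w, with a log2 fold change of 2.78 ± 0.66 (adjusted p = 0.0485). Car2, a carbonic anhydrase, was at 0, 33.7 and 12.2 CPM at 0w and at 614, 934 and 619 CPM at 1w pw2 (adjusted p = 0.0167), and Ctsc, the protease cathepsin C, was at a mean of 55.9 ± 26.1 CPM (SD, n = 3) at 0w and 455 ± 56.4 CPM at 1w pw2 (adjusted p = 0.0191).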
